A study of Mus musculus with 9 samples.

Results

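Complement is a cascade of plasma and tissue proteins, and 9 of its genes were followed here in mouse cortex: the C1q chains C1qa, C1qb and C1qc, the components C2, C4b, C3 and Cfb, the inhibitor Serping1 and the receptor C3ar1. They were selected by gene symbol from a table of 34714 genes, and all 9 were found and had enough counts to be tested among 18644 genes. Bulk poly(A) RNA had been sequenced from 3 groups of 3 samples, whose source names number a mouse for each. The first group was mice that had EAE (experimental autoimmune encephalomyelitis, in which immune cells attack myelin of brain and spinal cord) and were treated with Au18(L-NIBC)14, a gold nanocluster carrying cysteine-derived ligands, which the series title describes as acting on oligomerization of the inflammasome adaptor ASC. The second was mice with EAE and no such treatment, and the third was naive mice. Strain, sex, age, the antigen that induced EAE and the dose, schedule and collection time are not stated in the labels.

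In the classical pathway, C1q binds its target and activates the proteases C1r and C1s, which cleave C4 and C2 to form an enzyme that cleaves C3. Factor B serves the alternative pathway, which amplifies C3 cleavage. The C1 inhibitor encoded by Serping1 blocks C1r and C1s, and the fragment C3a signals through the receptor encoded by C3ar1. In the brain, microglia are the main source of C1q, reactive astrocytes and microglia can make C3 and C4, and C1q and C3 are known for tagging synapses for removal by microglia.

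Library totals lay between 26972179 and 45243553 counts. The summed level of 6 markers of cortical excitatory neurons was 1818 to 1909 CPM (counts normalised to library size with TMM factors) in treated EAE, 1452 to 1665 CPM in EAE and 1713 to 1787 CPM in naive libraries, with none at 0. Neighbouring tissue varied within groups. Markers of striatum summed to 142 CPM in naive replicate 3 and 1022 CPM in naive replicate 1, and those of choroid plexus to 895 CPM in EAE replicate 1 against 7.53 to 103 CPM elsewhere. Erythrocyte markers were lower in every EAE library than in any other, with sums of 102 to 380 CPM in treated EAE, 7.16 to 23.6 CPM in EAE and 131 to 175 CPM in naive libraries, none at 0. Of these 5 genes edgeR called 1 higher in treated against untreated EAE and 2 lower in EAE against naive. The part of residual blood in the complement values was not tested. In bulk tissue, fewer cells of a type and less RNA per cell cannot be told apart.

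All 9 genes had higher fitted levels in EAE than in naive cortex, and all 9 had lower fitted levels in treated than in untreated EAE. Only C3ar1 in EAE against naive passed an adjusted p of 0.05 with edgeR's quasi-likelihood test, adjusted over all genes tested. That is 1 of 9 members, where 0.735% of all genes tested were called higher and 0.252% lower. In 8 of 9 members every EAE library lay above every naive one, a pattern seen in the same direction in 12.2% of genes tested. DESeq2, run as an alternative, called 8 of 9 members higher, C2 being the exception, where it called 3.80% of genes higher. Summed over the 9 genes, the level was 135, 233 and 152 CPM in treated EAE replicates 1 to 3, 204, 537 and 317 CPM in EAE, and 126, 136 and 105 CPM in naive cortex. The C1q chains and C4b made up 81.4% to 93.4% of this sum over the 9 libraries, so it says little of the other members. No label pairs an EAE library with a naive one.

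**Figure D1:**
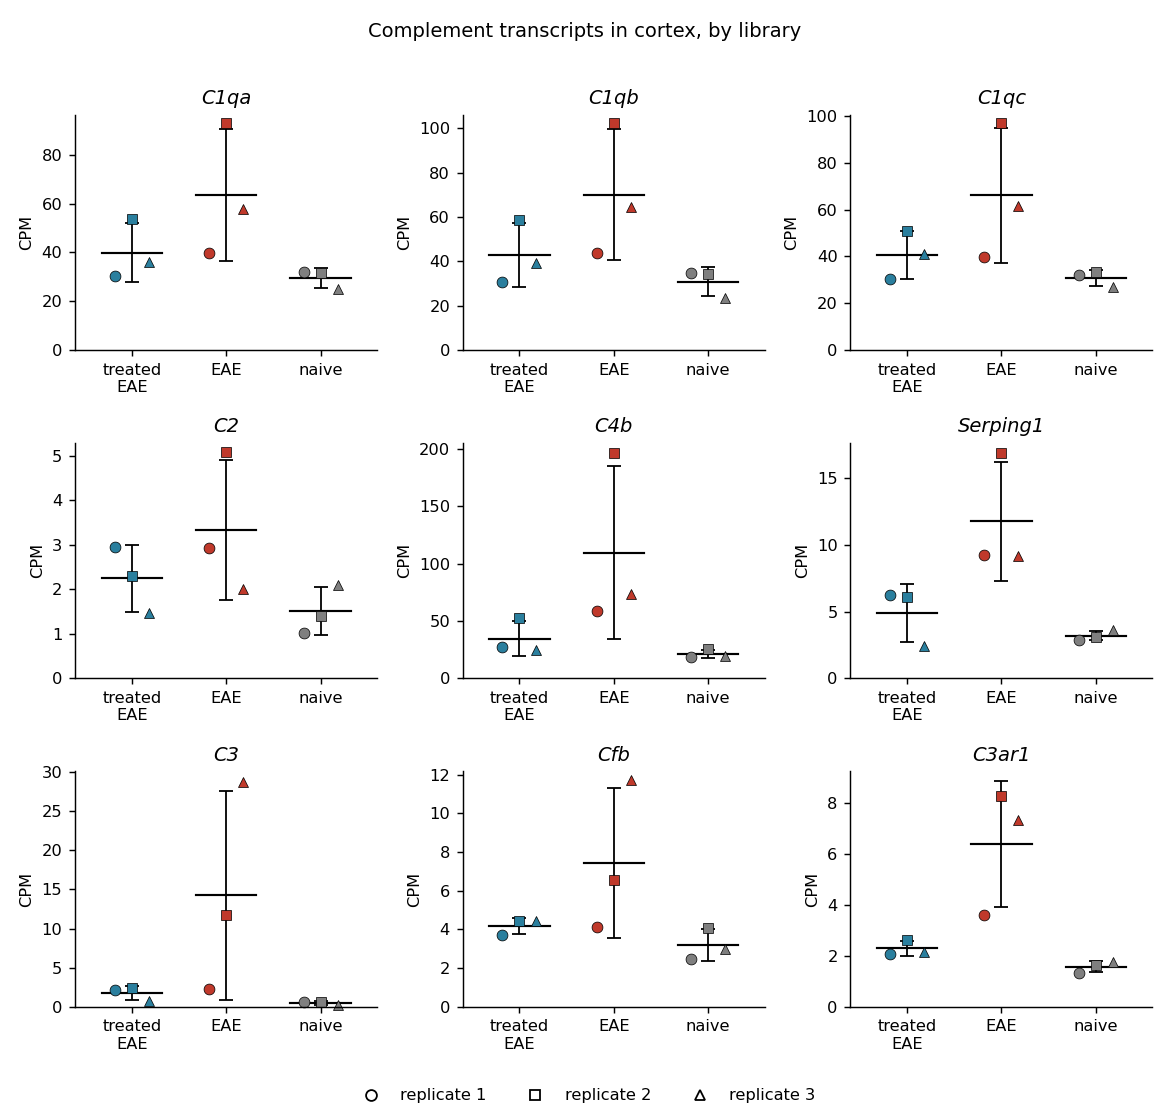
CPM of each of the 9 complement genes in every library, for treated EAE, EAE and naive cortex from left to right. Symbols give the replicate number, the horizontal line is the mean and the bar 1 SD (n = 3). EAE replicate 2 is the highest EAE library for 7 genes and EAE replicate 3 for C3 and Cfb. The ratio of the highest to the lowest naive library is largest for C3, at 3.50.

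The C1q chains C1qa, C1qb and C1qc encode the A, B and C chains, which assemble into 1 recognition molecule. They lie side by side on the minus strand of chromosome 4 (GRCm38, GENCODE M21 gene models), C1qb at 136880129 to 136886187, C1qc at 136889804 to 136893065 and C1qa at 136895917 to 136898803. Only 3616 bases separate C1qb from C1qc and 2851 bases separate C1qc from C1qa. These neighbours had near-parallel levels in all libraries. Upstream windows were available for only 4 of the 9 members, C1qb, C1qc, C3 and C3ar1, and all 4 are shown. For C1qb and C1qc they are the 250 bases upstream of the RefSeq start (chr4:136886201-136886450 and chr4:136892915-136893164). Both lie on the minus strand and are read 5′ to 3′ (RefSeq, GRCm38.p6). Capitals mark matches to any of 5 motifs searched on both strands in this window.
C1qb: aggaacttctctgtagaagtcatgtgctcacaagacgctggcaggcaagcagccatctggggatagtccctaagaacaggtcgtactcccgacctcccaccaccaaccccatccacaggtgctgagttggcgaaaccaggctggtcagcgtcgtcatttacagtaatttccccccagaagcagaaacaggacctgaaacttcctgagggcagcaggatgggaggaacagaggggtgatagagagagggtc
C1qc: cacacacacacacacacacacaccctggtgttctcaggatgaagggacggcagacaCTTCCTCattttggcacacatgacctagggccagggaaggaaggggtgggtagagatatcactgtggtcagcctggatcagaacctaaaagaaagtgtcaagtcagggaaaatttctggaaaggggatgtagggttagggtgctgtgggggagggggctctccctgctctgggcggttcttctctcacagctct
The motifs were a TATA box (TATAAA), a C/EBP motif (TTGCNNAA), a STAT motif (TTCNNNGAA), an interferon-response-like motif (GAAA, any 2 bases, GAAA) and the core of a PU.1 motif (GAGGAAG). Of 32851 RefSeq promoter windows of the same length, 12.4%, 9.56%, 7.02%, 2.98% and 10.6% held them, in that order. C1qc held a PU.1 core on the other strand, 194 to 188 bases before its RefSeq start, and C1qb held none of the 5. The GENCODE model of C1qc reaches to 136893065, within the C1qc window, so the bases nearest the RefSeq start lie inside the annotated gene. A match is a description of letters and says nothing of binding.

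C1qa was at 30.2, 53.5 and 36.2 CPM in treated EAE replicates 1 to 3, at 39.8, 93.1 and 58.0 CPM in EAE and at 32, 31.6 and 24.8 CPM in naive cortex. C1qb was at 30.5, 58.5 and 39.3 CPM in treated EAE, at 43.5, 102 and 64.6 CPM in EAE and at 34.8, 34.5 and 23.3 CPM in naive cortex. C1qc was at 30.4, 50.9 and 41.2 CPM in treated EAE, at 39.8, 97.2 and 61.5 CPM in EAE and at 31.9, 33.3 and 27 CPM in naive cortex. For each chain, EAE replicate 2 was highest, EAE replicate 1 lay just above the naive libraries, and the treated group overlapped both others. The log2 fold changes of EAE against naive were 1.11 (SE 0.32) for C1qa, 1.18 (SE 0.35) for C1qb and 1.11 (SE 0.31) for C1qc, and none passed (edgeR adjusted p = 0.142, 0.148 and 0.135). DESeq2 called all 3 chains, at DESeq2 adjusted p = 0.00413 for C1qa, 0.0463 for C1qb and 0.00322 for C1qc. Without EAE replicate 2 the edgeR estimates came to 0.73, 0.81 and 0.72.

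The chains kept their proportions. C1qa made up 31.0% to 33.2% of the summed C1q CPM over the 9 libraries, C1qb 31.0% to 35.9% and C1qc 31.2% to 35.9%, while the sum itself ran from 75.1 CPM in naive replicate 3 to 293 CPM in EAE replicate 2. Among the 9 genes, the closest profiles were those of C1qa and C1qc, with a root mean square difference of 0.07 log2 units after centring each gene on its own mean, followed by C1qa and C1qb at 0.08 and C1qb and C1qc at 0.11. The next closest pair, C4b and C3ar1, differed by 0.39.

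C1q was set beside markers of homeostatic microglia. Of 8 such genes, 0 were called in EAE against naive by edgeR or DESeq2, 0 had an unadjusted edgeR p under 0.05, 5 had a log2 fold change above 0 and the median was 0.12. Their summed level was 250 to 302 CPM in treated EAE, 223 to 397 CPM in EAE and 230 to 278 CPM in naive libraries, and none was at 0. The ratio of summed C1q to these markers was 0.365, 0.618 and 0.387 in treated EAE, 0.553, 0.736 and 0.708 in EAE, and 0.382, 0.358 and 0.327 in naive libraries. Every EAE ratio thus lay above every naive one, and treated replicate 2 lay within the EAE range while the other treated libraries lay near the naive ones. Markers of border macrophages and infiltrating monocytes, 9 genes, all had a log2 fold change above 0 in EAE against naive (median 1.53), 0 were called by edgeR and 2 by DESeq2, and 5 had an unadjusted edgeR p under 0.05. Their summed level was 8.35, 9.82 and 3.75 CPM in treated EAE, 10.6, 25.6 and 25.3 CPM in EAE, and 5.39, 6.09 and 7.24 CPM in naive libraries, with none at 0. Markers of meningeal and perivascular fibroblasts were above 0 in 7 of 7 genes, 0 of them called by edgeR, 4 at an unadjusted edgeR p under 0.05 and 1 called by DESeq2, and summed to 103 to 229 CPM in treated EAE, 150 to 304 CPM in EAE and 106 to 150 CPM in naive libraries, with none at 0. Of 6 neutrophil markers Ly6g was at 0 in all libraries, and the list summed to 0.331 to 0.972 CPM in treated EAE, 0.552 to 1.70 CPM in EAE and 0.241 to 0.257 CPM in naive libraries. Choroid plexus markers were above 0 in 6 of 6 genes (median 1.89), 0 called by edgeR, 2 at an unadjusted edgeR p under 0.05 and 1 called by DESeq2, and summed to 7.53 to 17.2 CPM in treated EAE, 25.3 to 895 CPM in EAE and 11.7 to 44.3 CPM in naive libraries. The part of these cells in the complement values was not tested.

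**Figure D2:**
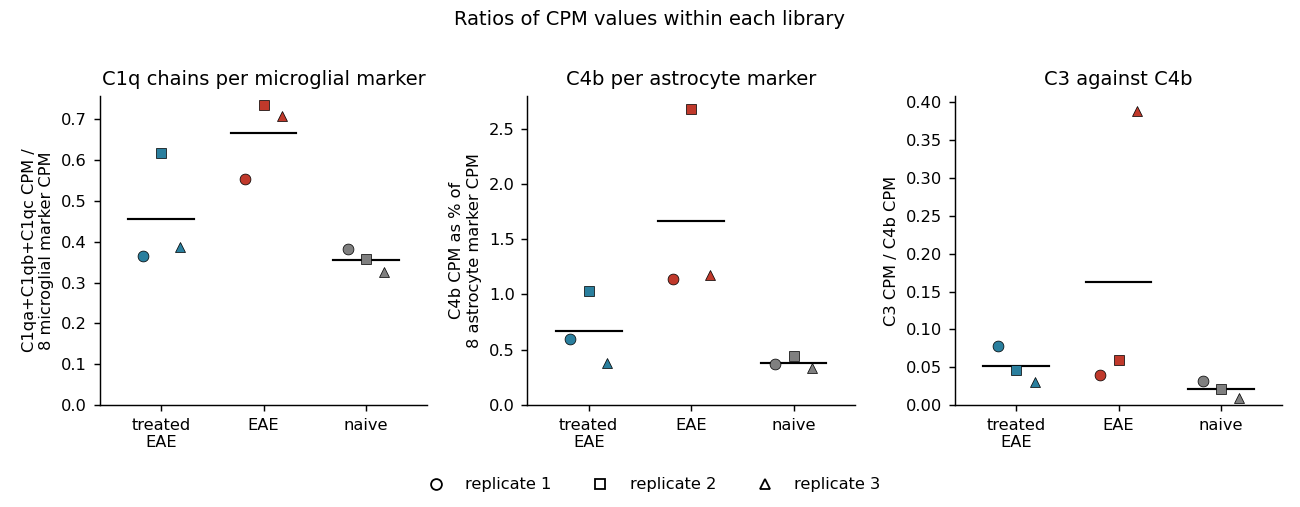
Ratios of CPM values within each library, for treated EAE, EAE and naive cortex from left to right: the 3 C1q chains over 8 microglial markers, C4b as a percent of 8 astrocyte markers, and C3 over C4b. Symbols give the replicate number and lines the mean of 3 libraries. All EAE values of the first 2 ratios lie above all naive values, and EAE replicate 3 stands apart in C3 over C4b at 0.389.

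C4b encodes complement C4, which is cleaved by C1s and becomes bound to target surfaces. C4b was at 27.1, 52.3 and 24.3 CPM in treated EAE replicates 1 to 3, at 58.3, 196 and 73.7 CPM in EAE and at 18.8, 25.3 and 19.4 CPM in naive cortex. All EAE libraries lay above all others, and treated replicates 1 and 3 lay near the naive range. The log2 fold change of EAE against naive was 2.37 (SE 0.51, 95% interval 1.21 to 3.54), which did not pass (edgeR adjusted p = 0.0721). It passed with DESeq2 (DESeq2 adjusted p = 0.000767). Without EAE replicate 2 it was 1.64. C4b lies on chromosome 17, 34728380 to 34743882, and has a near-identical copy, C4a, so reads of the pair may be shared. C4a was at 1.84 ± 0.36 CPM in treated EAE, 3.65 ± 2.02 CPM in EAE and 1.91 ± 0.08 CPM in naive cortex (SD, n = 3 each), and its EAE estimate of 0.93 did not pass (edgeR adjusted p = 0.221).

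As a share of 8 astrocyte markers, C4b was 0.599%, 1.03% and 0.375% in treated EAE, 1.14%, 2.68% and 1.18% in EAE and 0.368%, 0.439% and 0.338% in naive libraries. The astrocyte markers themselves summed to 4528 to 6483 CPM in treated EAE, 5120.0 to 7329 CPM in EAE and 5111 to 5775 CPM in naive libraries. Of them, 0 of 8 were called by edgeR in EAE against naive, 1 was called by DESeq2, 2 had an unadjusted edgeR p under 0.05, and their median log2 fold change was 0.04. None was at 0. Slc1a2 alone, at 2476 to 4258 CPM, made up the largest part of the sum. The gene called by DESeq2 was Gfap, at 1.42 in EAE against naive (edgeR adjusted p = 0.109, DESeq2 adjusted p = 0.0134). Gfap was at -1.18 in treated against untreated EAE (edgeR adjusted p = 0.190). Every EAE library lay above every other for Gfap.

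C2, the protease that joins C4 in the classical C3-cleaving enzyme, had the least separated groups. It was at 2.95, 2.30 and 1.47 CPM in treated EAE, at 2.92, 5.08 and 2.01 CPM in EAE and at 1.03, 1.39 and 2.10 CPM in naive cortex. EAE replicate 3 lay below naive replicate 3, which made C2 the only member whose EAE and naive groups overlapped. Its log2 fold change was 1.16 (SE 0.41, edgeR adjusted p = 0.200), and it passed in 0 of 16 alternatives. C2 (chromosome 17, 34862604 to 34898265) and Cfb (34856374 to 34862518) both lie on the minus strand, and C2 ends 85 bases before Cfb starts. In the annotation, the gene model Gm20547 covers 42.8% of the exon bases of C2 and 79.5% of those of Cfb on the same strand. The counted genes do not include Gm20547, so whether reads of these genes were mixed cannot be told.

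Serping1, on chromosome 2 (84765387 to 84775444), encodes the C1 inhibitor and was the regulator among the 9. It was at 6.28, 6.09 and 2.43 CPM in treated EAE, at 9.25, 16.9 and 9.14 CPM in EAE and at 2.91, 3.08 and 3.58 CPM in naive cortex. The EAE libraries lay above all others, and treated replicate 3 was below every naive library. EAE against naive gave a log2 fold change of 1.89 (SE 0.37, 95% interval 1.05 to 2.72) that did not pass (edgeR adjusted p = 0.0556), and DESeq2 called it (DESeq2 adjusted p = 1.72e-05).

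C3, the point where all complement pathways meet, had the largest estimated fold change of the 9 and the widest spread within EAE. It was at 2.12, 2.44 and 0.735 CPM in treated EAE, at 2.27, 11.8 and 28.7 CPM in EAE and at 0.603, 0.550 and 0.172 CPM in naive cortex. The highest EAE library had 12.6 times the level of the lowest, where that ratio was 1.85 to 3.37 for the other 8 genes. EAE replicate 1 was within the range of the treated libraries. The log2 fold change of EAE against naive was 4.96 (SE 0.99, 95% interval 2.69 to 7.22), which did not pass (edgeR adjusted p = 0.0605) and passed with DESeq2 (5.01, DESeq2 adjusted p = 1.87e-05). Leaving out single libraries gave 3.95 to 5.47, the lowest without EAE replicate 3 and the highest without EAE replicate 1, where it passed (edgeR adjusted p = 0.0126). The ratio of C3 to C4b CPM was 0.0784, 0.0467 and 0.0302 in treated EAE, 0.0390, 0.0600 and 0.389 in EAE and 0.0321, 0.0217 and 0.00888 in naive libraries. Apart from EAE replicate 3 no library exceeded 0.0784.

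The 250 bases upstream of the RefSeq start of C3 on the minus strand (chr17:57228137-57228386, GRCm38.p6) follow, with motif matches in capitals as before.
C3: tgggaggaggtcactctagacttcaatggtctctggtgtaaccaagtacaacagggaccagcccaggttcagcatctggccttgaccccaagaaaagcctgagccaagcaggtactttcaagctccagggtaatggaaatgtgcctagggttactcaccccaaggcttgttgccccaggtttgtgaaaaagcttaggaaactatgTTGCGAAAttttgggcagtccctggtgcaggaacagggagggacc
This window held a C/EBP match 45 to 38 bases before the start and no match to the other 4 motifs. The gene itself spans 57203970 to 57228136. The liver is the main source of C3 in plasma. Of 5 liver markers, Serpina1a and Fgb were at 0 in all 9 libraries and Alb reached at most 0.122 CPM. The list summed to 1.97 to 8.03 CPM in treated EAE, 9.06 to 829 CPM in EAE and 3.08 to 32.7 CPM in naive libraries, most of it Ttr, which the choroid plexus list also holds and which was at 828 CPM in EAE replicate 1. The fifth marker, Apoa2, was at 0.522 to 0.661 CPM in treated EAE, 0.347 to 0.844 CPM in EAE and 0.345 to 0.733 CPM in naive libraries. Their part in the C3 values was not tested.

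Cfb encodes factor B, the protease of the alternative pathway, and was the other gene with its highest EAE level in replicate 3. It was at 3.69, 4.43 and 4.41 CPM in treated EAE, at 4.12, 6.53 and 11.7 CPM in EAE and at 2.46, 4.07 and 3.0 CPM in naive cortex. EAE replicate 1 exceeded naive replicate 2 only slightly. The EAE estimate was 1.24 (SE 0.35), short of the threshold with edgeR (edgeR adjusted p = 0.123) and past it with DESeq2 (DESeq2 adjusted p = 0.0127).

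C3ar1 (chromosome 6, 122847138 to 122856161), the receptor for C3a and a gene of microglia and other myeloid cells, rose in EAE. It was at 2.08, 2.63 and 2.17 CPM in treated EAE, at 3.60, 8.28 and 7.33 CPM in EAE and at 1.32, 1.65 and 1.76 CPM in naive cortex. The groups did not overlap, in the order EAE, treated EAE, naive. Against naive, EAE was higher by 2.03 on the log2 scale (SE 0.30, 95% interval 1.35 to 2.71, edgeR adjusted p = 0.0260). The call was lost in 5 of 9 fits that left out 1 library: without EAE replicate 2 (1.80, edgeR adjusted p = 0.0714), without EAE replicate 3 (1.93, 0.0722) and without naive replicates 1, 2 and 3 in turn (1.91, 2.06 and 2.12; edgeR adjusted p = 0.123, 0.0983 and 0.0943). With C3ar1 lost, no member was called in these fits. Without EAE replicate 1, 4 members were called higher (C1qc, C3, Cfb and C3ar1), where 234 of 18908 genes were called higher. DESeq2 gave C3ar1 an estimate of 2.03 as well (DESeq2 adjusted p = 2.06e-07).
The 250 bases upstream of its RefSeq start on the minus strand (chr6:122856158-122856407, GRCm38.p6) follow.
C3ar1: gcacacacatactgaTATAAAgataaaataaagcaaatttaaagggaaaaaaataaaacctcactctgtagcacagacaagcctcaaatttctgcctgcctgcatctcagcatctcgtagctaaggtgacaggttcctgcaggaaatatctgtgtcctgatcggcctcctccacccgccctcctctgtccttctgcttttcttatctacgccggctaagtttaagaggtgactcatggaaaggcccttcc
They held TATAAA 235 to 230 bases before the start, and none of the other 4 motifs.

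**Figure D3:**
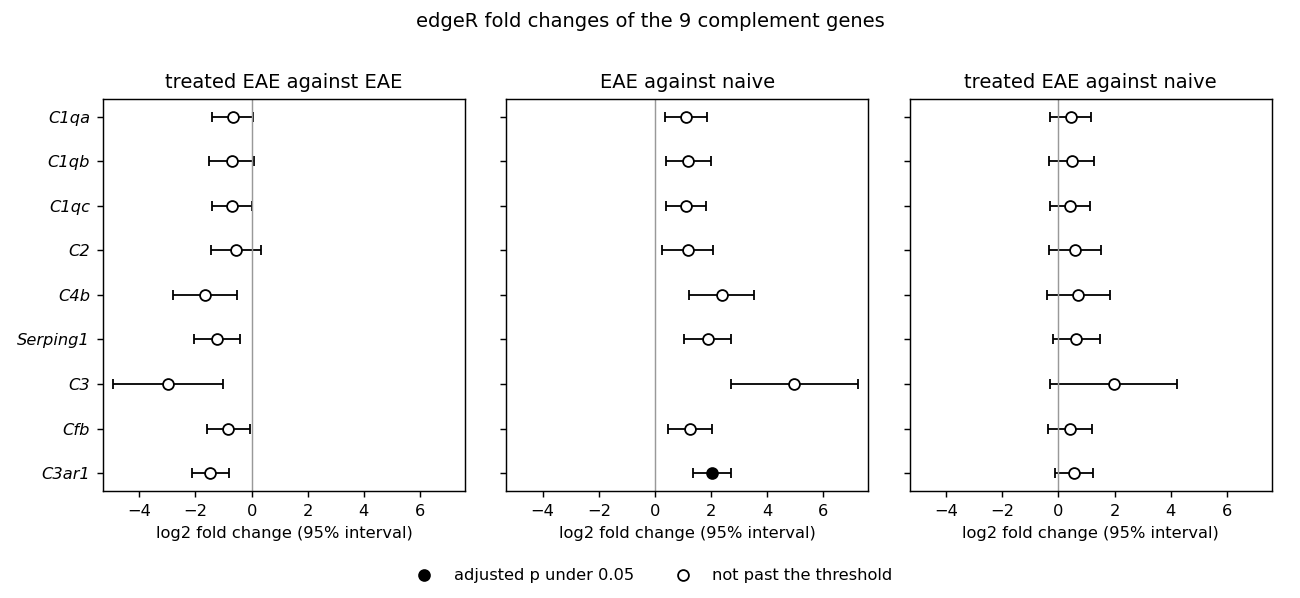
Log2 fold changes of the 9 genes with 95% intervals from edgeR, for treated EAE against EAE, EAE against naive and treated EAE against naive. A filled point marks an adjusted p under 0.05, which C3ar1 reached in EAE against naive (2.03), and the points of the first panel all lie below 0.

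Expressed per kilobase of annotated exon, which allows genes to be set side by side, the naive levels in CPM per kb were 28.4 ± 3.88 for C1qa, 28.4 ± 6.01 for C1qb and 15.9 ± 1.74 for C1qc (SD, n = 3). C4b followed at 3.72 ± 0.635, Serping1 at 1.37 ± 0.152, Cfb at 1.12 ± 0.290, C2 at 0.389 ± 0.141, C3ar1 at 0.366 ± 0.0531 and C3 at 0.0859 ± 0.0457. C1qa and C1qb did not differ beyond their spread, nor did Serping1 and Cfb, or C2 and C3ar1. In EAE the order by CPM per kb was C1qb (64.4 ± 27.3), C1qa (61.2 ± 26.1), C1qc (34.3 ± 15.0), C4b (19.2 ± 13.3), Serping1 (5.06 ± 1.92), C3 (2.77 ± 2.6), Cfb (2.64 ± 1.37), C3ar1 (1.49 ± 0.574) and C2 (0.862 ± 0.406). C3 was last in the naive order and in the middle of the EAE order, where its spread overlapped those of Serping1, Cfb, C3ar1 and C2. Exon lengths come from all annotated transcripts together, so the values are approximate where transcripts differ.

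Treatment was compared with untreated EAE next, to ask whether Au18(L-NIBC)14 changed complement transcripts. The edgeR test called 0 of 9 members, where it called 0.220% of all genes, 0.129% lower and 0.0912% higher. At an unadjusted edgeR p under 0.05 there were 5 members, all lower (C4b, Serping1, C3, Cfb and C3ar1), against 7.65% of all genes lower and 7.43% higher. DESeq2 called 4 lower (C4b, Serping1, C3 and C3ar1), against 2.08% of all genes. In 3 of 9 members (C4b, Serping1 and C3ar1) every treated library lay below every EAE library, as in 9.28% of genes tested, and in 0 of 9 every treated library lay above, as in 9.93%. This comparison and EAE against naive share the EAE libraries.

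C3ar1 came closest to the threshold, with a log2 fold change of -1.48 (SE 0.29, 95% interval -2.14 to -0.82, edgeR adjusted p = 0.0896). It passed in 2 of 16 alternatives, without EAE replicate 1 (-1.77, edgeR adjusted p = 0.0192) and with DESeq2 (DESeq2 adjusted p = 0.000525). Over the 9 fits that left out 1 library, its estimate ran from -1.77 to -1.25 and its edgeR adjusted p reached 0.244. C3 had the largest estimate, -2.98 (SE 0.85, 95% interval -4.92 to -1.03), but its treated range reached above EAE replicate 1 (edgeR adjusted p = 0.172). The estimates were -1.66 for C4b (SE 0.49, edgeR adjusted p = 0.183) and -1.24 for Serping1 (SE 0.36, edgeR adjusted p = 0.167). Both were called by DESeq2, at DESeq2 adjusted p = 0.0478 for C4b and 0.0168 for Serping1, as was C3 at 0.0350. Cfb had -0.83 (SE 0.34, edgeR adjusted p = 0.299). Leaving out single libraries gave estimates from -3.49 to -1.98 for C3 and from -1.13 to -0.36 for Cfb, both weakest without EAE replicate 3. It gave -2.09 to -0.94 for C4b, -1.46 to -0.89 for Serping1 and -0.95 to -0.30 for C1qa, each weakest without EAE replicate 2. For the C1q chains the 95% intervals ran from -1.40 to 0.06 for C1qa, from -1.50 to 0.08 for C1qb and from -1.41 to 0.01 for C1qc, and for C2 from -1.45 to 0.32, so that for these genes a fall of more than 2-fold and no change both lay inside. Several marker lists had estimates mostly in the same direction. Those of border macrophages and monocytes were below 0 in 8 of 9 genes (median -1.44), of choroid plexus in 6 of 6 (median -2.54), of fibroblasts in 6 of 7 (median -0.63), of striatum in 5 of 5 (median -0.58), of astrocytes in 6 of 8 (median -0.14), of endothelium in 4 of 5 (median -0.06) and of T cells in 2 of 2 tested (median -0.50). Summed choroid plexus levels were 7.53 to 17.2 CPM in treated EAE and 25.3 to 895 CPM in EAE, and none of its markers was at 0. The 2 T cell genes tested were Cd4 and Lck, while Cd3e, Cd3d, Cd3g and Cd8a were too low to test. Cd4 had an estimate of -0.52 (SE 1.19). It was at 19.0, 3.37 and 1.10 CPM in naive replicates 1 to 3, where striatum markers summed to 1022, 325 and 142 CPM. None of these 7 lists had a gene called by edgeR. At an unadjusted edgeR p under 0.05 there were 3 border macrophage, 6 choroid plexus, 1 fibroblast, 1 astrocyte and 1 endothelial gene lower, and DESeq2 called 3 choroid plexus genes and 1 fibroblast gene lower. In the other lists, genes above 0 were 4 of 8 for homeostatic microglia (median 0.01) and 3 of 5 for oligodendrocytes (median 0.15). They were 6 of 6 for cortical excitatory neurons (median 0.26) and 5 of 5 for erythrocytes (median 4.20). For B cells they were 1 of 2 tested (median -0.50), for liver 0 of 2 (median -3.07) and for neutrophils 0 of 1 (-0.68). The part of any of these lists in the complement values was not tested.

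Within the treated group, replicate 2 had the highest level of 7 genes, and C2 and Serping1 were highest in replicate 1. Treated replicate 2 exceeded every naive library for all 9 genes. Treated replicate 1 did so for 5 genes, the exceptions being the C1q chains and Cfb, and treated replicate 3 for 6, the exceptions being C2, C4b and Serping1.

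Treated EAE against naive completed the comparisons, and it shares its libraries with the other 2. The edgeR test called 0 of 9 members and 0% of all genes. At an unadjusted edgeR p under 0.05 there were 0 members, against 1.07% of all genes higher and 0.638% lower. DESeq2 called 0 members, against 0.0109% of genes higher. All 9 estimates were above 0, between 0.40 for Cfb (95% interval -0.38 to 1.19) and 1.98 for C3 (95% interval -0.28 to 4.24). Treated libraries lay above all naive libraries for 2 of 9, C3 and C3ar1, as for 3.51% of genes tested, and below them for 0 of 9, as for 2.74%. C3 averaged 1.77 ± 0.908 CPM in treated EAE and 0.442 ± 0.235 CPM in naive cortex, and C3ar1 averaged 2.29 ± 0.298 CPM in treated EAE and 1.58 ± 0.229 CPM in naive cortex (SD, n = 3 each). The interval of C3ar1, -0.13 to 1.23, left room for no difference and for a rise of more than 2-fold.

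The rest of the complement system was read from 6 lists with 56 genes, of which 36 were tested. The edgeR test called 0 of 36 in each of the 3 comparisons. In EAE against naive, 12 had an unadjusted p under 0.05 in the upward and 3 in the downward direction, where 9.42% and 6.97% of all genes did. DESeq2 called 6 higher and 2 lower, where it called 3.80% and 1.87% of all genes. The median log2 fold change was 0.26 for these 36 genes, 1.24 for the 9 members and -0.01 for all genes tested. In treated against untreated EAE the medians were -0.18, -0.83 and 0.00, with 3 of the 36 higher and 6 lower at an unadjusted p under 0.05 and 2 each way with DESeq2. In treated EAE against naive they were 0.05, 0.55 and 0.01, with 3 of 36 higher and 0 lower at an unadjusted p under 0.05 and 0 with DESeq2.

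Upstream in the classical pathway, C1s1, which encodes the protease C1s, had 1.59, 4.03 and 5.07 CPM in treated EAE, 3.08, 5.05 and 4.83 CPM in EAE and 1.27, 1.28 and 1.93 CPM in naive cortex. Its EAE estimate was 1.53 (SE 0.41, edgeR adjusted p = 0.105, DESeq2 adjusted p = 0.00679). Treated EAE against EAE gave -0.29 (SE 0.39, edgeR adjusted p = 0.783). Of 10 tested classical and lectin genes, 8 lay above 0 in EAE (median 0.39). In the alternative pathway, Cfp, which encodes properdin, had 12.8, 13.2 and 19.6 CPM in treated EAE, 11.2, 11.3 and 15.9 CPM in EAE and 11.6, 13.1 and 12.6 CPM in naive cortex, an EAE estimate of 0.04 (SE 0.19, edgeR adjusted p = 0.944). Cfd, which encodes factor D, had 0 counts in all 9 libraries, as did Mbl1.

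Genes of the terminal pathway, which forms the membrane attack complex, were mostly too low to test. Of 7 such genes 2 were tested, C7 and C8g, and C8g had an EAE estimate of 0.35 (SE 0.19, edgeR adjusted p = 0.421). Membrane regulators had 5 of 10 above 0 in EAE and a median of 0.01. Susd4, a membrane regulator of complement, had its lowest values in the 3 EAE libraries, with 156, 158 and 163 CPM in treated EAE, 127, 122 and 128 CPM in EAE and 169, 151 and 146 CPM in naive cortex. Its estimates were 0.34 for treated EAE against EAE (SE 0.07, edgeR adjusted p = 0.0931, DESeq2 adjusted p = 0.00158) and -0.31 for EAE against naive (SE 0.07, edgeR adjusted p = 0.0708, DESeq2 adjusted p = 0.00317).

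Receptors included the largest estimates outside the 9. C5ar1, the receptor for C5a, had 0.513, 1.16 and 0.919 CPM in treated EAE, 0.681, 2.23 and 1.91 CPM in EAE and 0.201, 0.440 and 0.207 CPM in naive cortex, an EAE estimate of 2.53 (SE 0.54, edgeR adjusted p = 0.0608, DESeq2 adjusted p = 0.00125). Itgax, the alpha chain of complement receptor type 4, had 0.415, 0.379 and 0.441 CPM in treated EAE, 0.357, 3.56 and 2.61 CPM in EAE and 0.156, 0.0733 and 0.276 CPM in naive cortex. EAE replicate 1 lay just above the naive libraries and replicates 2 and 3 far above them. The EAE estimate was 3.66 (SE 0.78, edgeR adjusted p = 0.0635, DESeq2 adjusted p = 0.00016). Itgb2, the beta chain shared by complement receptors, had an EAE estimate of 1.16 (SE 0.33, edgeR adjusted p = 0.132). Itgam, in the same list, had 0.42 (SE 0.29, edgeR adjusted p = 0.530). Calr, which encodes the C1q-binding chaperone calreticulin, had 281, 269 and 261 CPM in treated EAE, 212, 219 and 222 CPM in EAE and 294, 285 and 244 CPM in naive cortex, and its EAE estimate was -0.33 (SE 0.08, edgeR adjusted p = 0.0775, DESeq2 adjusted p = 0.00586).

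**Figure D4:**
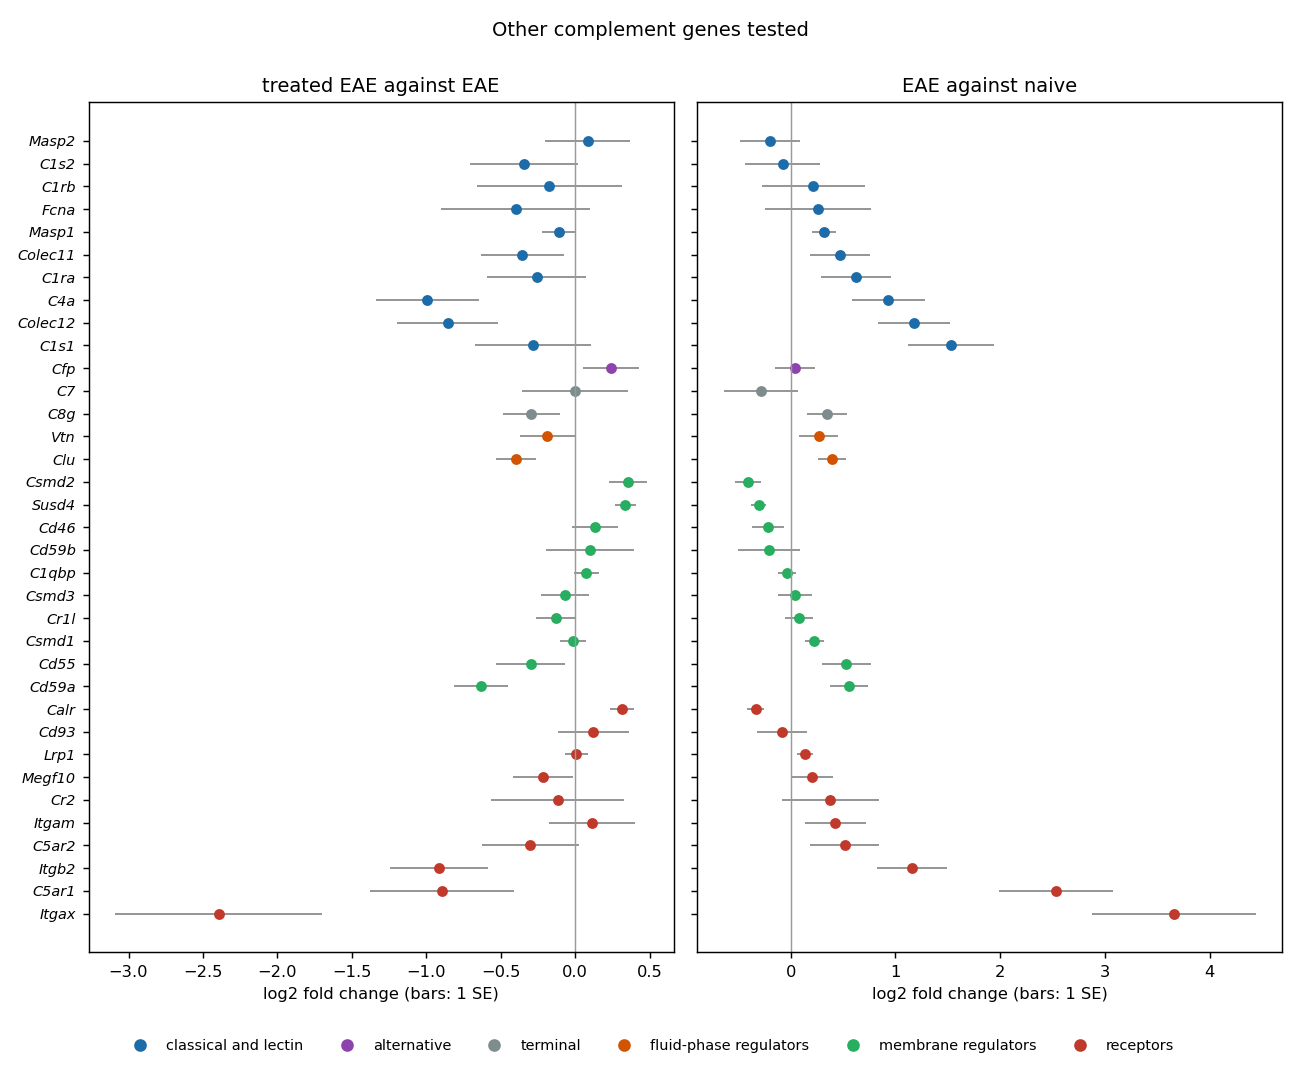
Log2 fold changes of other complement genes tested, for treated EAE against EAE on the left and EAE against naive on the right, with bars of 1 SE and colours for the 6 lists. No point passed an adjusted p of 0.05 with edgeR, and Itgax (3.66) and C5ar1 (2.53) lie farthest to the right in EAE against naive.

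Genes of like pattern were sought among 13799 genes by the root mean square difference of centred log2 CPM over the 9 libraries. A gene that does not vary lies at the target's own spread about its mean, which is near the distance of the median gene. That spread was 0.57 for C1q, 2.07 for C3, 1.05 for C4b and 0.87 for C3ar1. Nearest to the mean of the C1q chains were Pld4, Fermt3, Naip2, Ifitm3 and Fcer1g, at 0.10 to 0.16 log2 units, where the median gene differed by 0.59. Pld4, the closest, had 7.81, 10.7 and 9.33 CPM in treated EAE, 9.09, 20.7 and 13.8 CPM in EAE and 7.33, 7.74 and 5.62 CPM in naive cortex. Nearest to C3 were H2-Ab1, A2m, Cd74, Lyz2 and H2-Aa, at 0.67 to 0.87 log2 units, where the median gene differed by 2.07. Lyz2 had 13.5, 10.4 and 5.0 CPM in treated EAE, 9.18, 37.8 and 95.5 CPM in EAE and 4.92, 4.58 and 5.34 CPM in naive cortex, and like C3 it was highest in EAE replicate 3. H2-Ab1 was only slightly higher there (18.6 CPM) than in EAE replicate 2 (17.3 CPM). By contrast, A2m, Cd74 and H2-Aa were highest in EAE replicate 2. Nearest to C4b were Epsti1, Angptl4, Fcgr3, Fcgr2b and Lgals3bp (0.31 to 0.37, median gene 1.07), and nearest to C3ar1 were Runx1, Abhd15, Ctss, Fcgr2b and S100a4 (0.23 to 0.27, median gene 0.89).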

How the data were processed

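RNA of 9 cortex samples was sequenced as poly(A) libraries. Per the series' design text, as the authors deposited it, reads were checked with FastQC (version 0.11.8 per the submitters' processing notes), adapters were removed by fastp, alignment used Hisat2 and quantification used bowtie2, on build mm10, the assembly also called GRCm38. The sources used here name neither annotation nor strand setting. The authors deposited raw counts per gene symbol. A further 9 columns match no sample here and were not used.

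Counts were fitted with edgeR 4.0.16 under R 4.3.3 (TMM, filterByExpr, robust glmQLFit, glmQLFTest) over all 9 libraries with group as the only factor, and adjusted by Benjamini and Hochberg over 18644 genes at 0.05. The adjusted p values of single genes are from this fit unless DESeq2 (1.42.0) is named. CPM values use TMM factors, and SE is the absolute log2 fold change over the square root of F. Profiles were compared as log2 CPM (prior count 2). In each library 3.80 to 4.43 times more genes had 2 counts than had 1, as counting both mates would give, so halved counts were an alternative. The others were another scaling, DESeq2, looser and stricter filters, only the compared groups, a replicate block, and leaving out each library. Libraries of a group were no copies of each other (chi-square per degree of freedom 17.3 to 58.2). Nothing in the labels says more of the replicates than a numbered mouse each, so p-values measure the spread between these samples.

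Deviations of same-numbered libraries from their group means correlated across genes at 0.17, 0.24 and 0.24 between treated and untreated EAE. The values were 0.05, 0.11 and 0.36 for EAE with naive and -0.25, -0.12 and 0.20 for treated EAE with naive. Only the first set was taken as possible pairing, from the data and not the labels. The largest single value lay between EAE and naive, so these values cannot tell whether animals were paired. The main fit leaves the numbers out, and a replicate block was among the alternatives.

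The fit was tested on simulated data. Members and lists were chosen with earlier results of these data known. The naming rule took all 9 members, other complement genes called by edgeR (there were none), in each of the 6 complement lists the gene with the smallest p in EAE against naive, and the 5 genes closest in profile to C1q, C3, C4b and C3ar1, whose mean log2 CPM was 0 or more and no placeholder symbol. Other names (C4a, C7, Itgax, Itgb2, Itgam, Calr, Cfd, Mbl1, Gm20547 and single markers) were chosen after their values were seen. Some listed genes are not reported here by name. Cell type markers formed 14 lists, of which those for microglia, border macrophages, astrocytes, choroid plexus, striatum, cortical neurons and liver are given beside the results. In EAE against naive the other lists had medians of 3.32 (neutrophils), 0.12 (T cells), 0.63 (B cells), 0.92 (fibroblasts), 0.27 (endothelium), -0.34 (oligodendrocytes) and -3.31 (erythrocytes), with 1, 2, 2, 7, 5, 5 and 5 genes tested, and edgeR called 2 of them, both erythrocyte genes and lower.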

Additional observations from a re-analysis of the deposited data

How the results depend on the processing

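No member changed direction in any of the 3 comparisons under 16 alternatives. Of 432 such values, 409 kept their side of the threshold, 18 newly passed and 5 no longer passed, the last all for C3ar1 in EAE against naive. DESeq2 called 1051 genes in EAE against naive (184 with edgeR), 690 in treated against untreated EAE (41) and 3 in treated EAE against naive (0), and 8, 4 and 0 members. With only the compared groups fitted, edgeR called 2 members (Serping1 and C3ar1) in EAE against naive, where 174 of 18128 genes were called. In treated against untreated EAE it called 3 genes. With the replicate block edgeR called 2 members in EAE against naive, C3ar1 and C4b (2.18, edgeR adjusted p = 0.0215), where 238 of 18644 genes were called. In treated against untreated EAE the block changed no call of a member. There the edgeR adjusted p of C4b went from 0.183 to 0.0704 and that of C3 from 0.172 to 0.268. No label pairs the samples in either comparison. Leaving out 1 library gave 2 to 261 genes and 0 to 4 members in EAE against naive, 4 to 38 genes and 0 to 1 members in treated against untreated EAE, and 0 genes and 0 members in treated EAE against naive. In EAE against naive 2, 7 and 19 genes were called without naive replicates 1, 2 and 3, 34 and 52 without EAE replicates 2 and 3 and 87 without treated replicate 2. In treated against untreated EAE 20, 10 and 4 were called without treated replicates 1, 2 and 3, 6 and 5 without EAE replicates 2 and 3, and 14, 4 and 14 without naive replicates 1, 2 and 3. The number of members called in EAE against naive was 2 without treated replicate 3 (C3ar1 and Serping1), where 261 of 19003 genes were called. It was 4 without EAE replicate 1, where 252 of 18908 genes were called, and 0 without EAE replicates 2 or 3 or any naive one. In treated against untreated EAE it was 1 without EAE replicate 1, where 38 of 18908 genes were called. The cause was not tested. C3, C2 and C3ar1 in naive cortex rest on few counts, 5 to 27, 38 to 61 and 45 to 59 a library, which limits the precision of their fold changes.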
